A study of Mus musculus with 6 samples.

Results

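The Nodal pathway genes are the 9 genes Nodal, Lefty1, Lefty2, Tdgf1, Gdf3, Smad2, Smad3, Smad7 and Acvr1b, taken by symbol from the 19938 genes with a probeset of their own on a mouse whole-transcript array. All 9 were found, each with 1 probeset annotated with that symbol alone. RNA came from E14, a line of undifferentiated embryonic stem cells of the mouse, kept with serum and leukemia inhibitory factor on primary embryonic fibroblasts whose division had been stopped with mitomycin C. There were 2 samples exposed to 0.5 mM valproic acid (VPA), 2 exposed to 0.2 mM sodium butyrate (NaBu) and 2 left untreated (Control), all harvested at 16 h. VPA and NaBu are short-chain fatty acids that inhibit histone deacetylases, the enzymes that take acetyl groups off histones. All groups share the line, the medium and the fibroblast layer, so each RNA sample came from stem cells together with any fibroblasts harvested with them.

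Nodal is a secreted ligand of the transforming growth factor beta family. With its co-receptor Cripto, the product of Tdgf1, it binds activin receptors, of which Acvr1b encodes a type I chain, and the receptors phosphorylate Smad2 and Smad3, which enter the nucleus with Smad4 and act with partners such as Foxh1. In the mouse embryo the pathway patterns the epiblast and the body axes. It raises transcription of Nodal itself and of its secreted antagonists Lefty1 and Lefty2, and Smad7 blocks the receptors from inside the cell.

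Values are log2 intensities, in which a difference of 1 is a doubling, and differences are treated minus untreated. The arrays carry replicate numbers 1 and 2, and same-numbered arrays of the 3 groups deviated from their group means together, with correlations across genes between 0.558 and 0.693. They are called set 1 and set 2, and the difference within each set is given beside the mean. Sets 1 and 2 were unlike for VPA as a whole: 185 genes differed by at least 1 between VPA and Control in set 1, against 2 genes in set 2, while NaBu had 10 and 9. All 12 stem cell markers, among them Pou5f1, Nanog and Esrrb, lay above the median of all genes on every array. The 19 measured fibroblast markers had mean levels of 6.42 (VPA), 6.67 (NaBu) and 6.56 (Control) in set 1, and of 7.54, 7.64 and 7.33 in set 2, with 13 to 17 of them above the median of all genes. The labels do not say whether replicates were separate cultures, so p-values measure only the spread between these samples.

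In cells exposed to VPA, the antagonists Lefty1 and Lefty2 and the ligand Gdf3 had the largest differences from untreated cells among the 9 genes. The differences of both Lefty genes came almost wholly from set 1, Gdf3 was lower in both sets by unequal amounts, and those of Nodal, Tdgf1 and Acvr1b lay between -0.10 and 0.04 in each set. No member passed the test across all genes. limma with Benjamini-Hochberg adjustment called 0 of the 9 members and 0 of the 19938 genes (0%) at an adjusted p of 0.05, and the smallest adjusted p was 0.964. At an unadjusted p under 0.05 there were 981 genes, 2.18% of all genes lower and 2.74% higher, and 0 members.

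**Figure D1:**
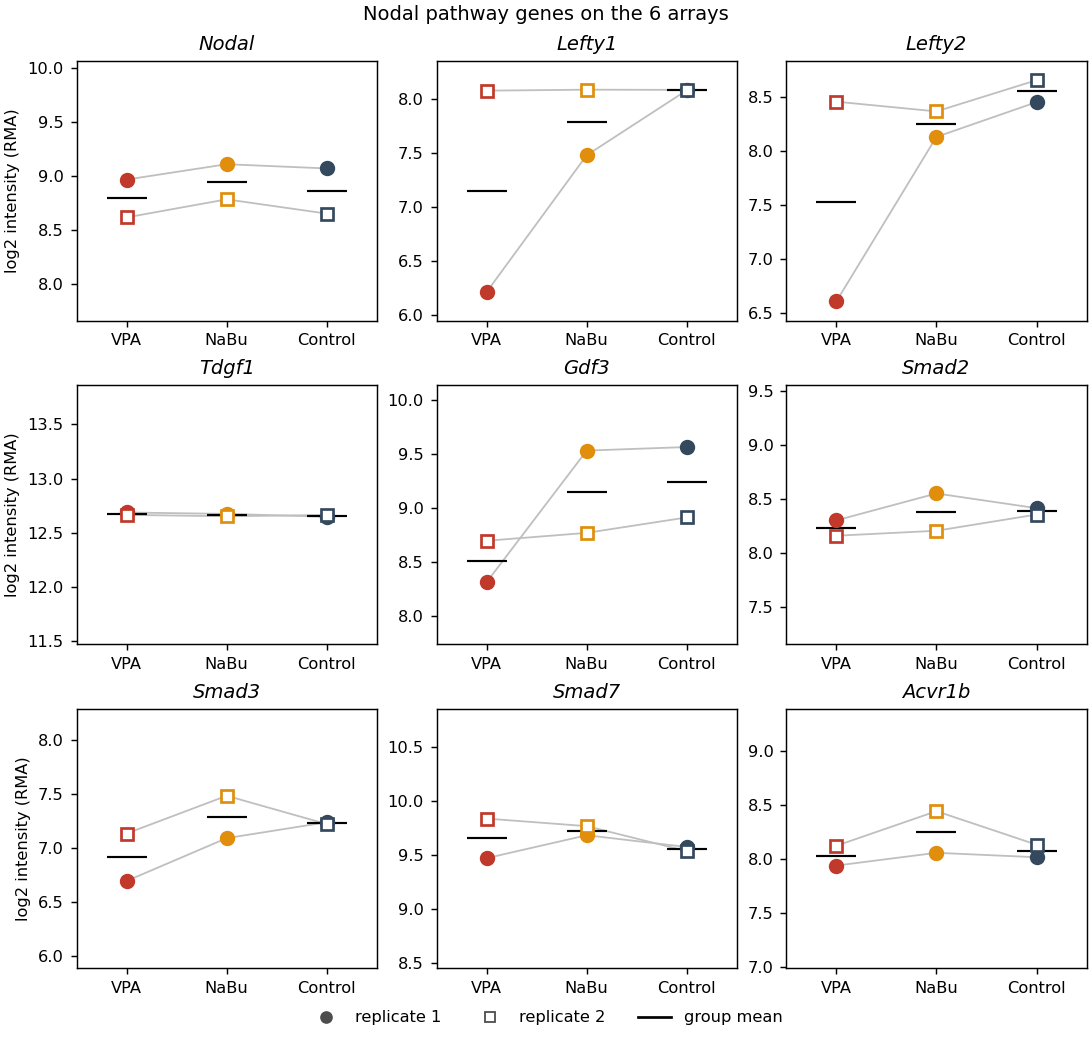
Log2 intensity of each Nodal pathway gene (vertical axes, shifted per gene, each at least 2.4 log2 units tall) in VPA, NaBu and Control samples, with filled circles for replicate 1, open squares for replicate 2, black bars for group means and grey lines joining same-numbered arrays. Lefty1 and Lefty2 stood at 6.21 and 6.61 on the array of VPA replicate 1, apart from the other 5 arrays.

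Of the ligands, Nodal had log2 levels of 8.97 and 8.62 in VPA samples and of 9.07 and 8.65 in Control samples (replicates 1 and 2). The groups overlapped, and replicate 1 was the higher array in each. On average the difference was -0.07 (95% interval -0.58 to 0.44, limma, adjusted p 0.997), with -0.10 in set 1 and -0.04 in set 2. In bulk RNA, fewer cells of a type and less RNA per cell cannot be told apart.

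Gdf3 encodes a related ligand that is expressed in pluripotent cells and can act through the same receptors and Cripto. It had levels of 8.31 and 8.70 in VPA samples, against 9.56 and 8.91 in Control samples. Both VPA arrays lay below both Control arrays. The mean difference was -0.73 (95% interval -1.51 to 0.05, limma, adjusted p 0.964). Set 1 had a difference of -1.25, a level 2.38-fold lower in VPA, and set 2 had -0.22, 1.16-fold lower. In set 1 only 32 of the 19938 genes had a lower difference, while 2482 did in set 2.

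Lefty1 had levels of 6.21 and 8.08 in VPA samples and of 8.08 and 8.08 in Control samples. VPA replicate 1 stood alone, 3.65-fold below the untreated array of its set, and VPA replicate 2 lay within 0.01 of its own. The mean difference was -0.94 (95% interval -2.30 to 0.43, limma, adjusted p 0.964), with -1.87 in set 1 and -0.01 in set 2. Without VPA replicate 1 the mean difference was -0.01. Lefty2 had levels of 6.61 and 8.46 in VPA samples, against 8.45 and 8.66 in Control samples. Again VPA replicate 1 was the low array, 3.59-fold below its control, and the groups overlapped. The mean difference was -1.02 (95% interval -2.33 to 0.29, limma, adjusted p 0.964), with -1.84 in set 1 and -0.20 in set 2, and it was -0.10 without VPA replicate 1. With 1 array for each compound and set, whether the VPA difference itself differs between sets was not tested.

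Within set 1, the VPA differences of Lefty1 and Lefty2 were the third and the fourth lowest of all 19938 genes. The lower values belonged to Prmt8, an arginine methyltransferase (-1.98), and Cyp2b23, a cytochrome P450 (-1.92), genes named here after their values were seen. The fifth lowest was Inhbb (-1.76), which encodes the subunit of activin B, a ligand that signals through the same Smads. In set 2 these pathway genes lay close to the bulk of all genes, as the plot of the VPA difference in each set shows. Lefty1 and Lefty2 are close paralogs on chromosome 1, and whether their probesets share signal was not tested. Neighbouring coding genes had small differences: Sde2 differed by -0.02 and -0.04 and Tmem63a by 0.05 and 0.03 between VPA and Control in sets 1 and 2. Beside Gdf3, Dppa3 differed by 0.26 and -0.49, and Apobec1 by -0.42 and -0.43 (95% interval -0.71 to -0.13, limma, adjusted p 0.964). These neighbours were also picked after the values were seen.

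**Figure D2:**
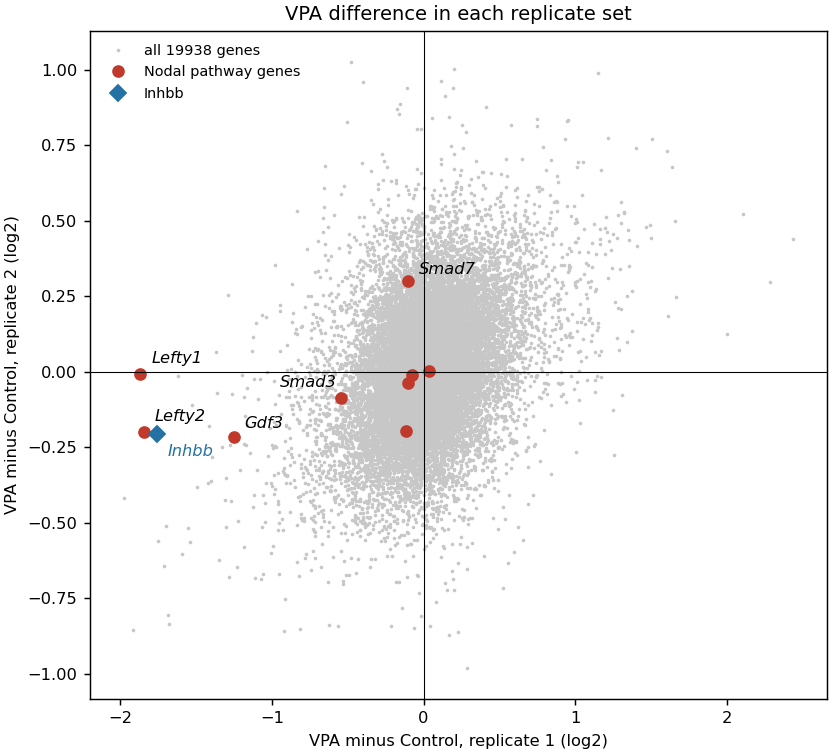
VPA minus Control in log2 units in replicate set 1 (horizontal) against set 2 (vertical, a shorter scale), with all 19938 genes in grey, the 9 Nodal pathway genes in red and Inhbb in blue. Lefty1, Lefty2, Gdf3 and Inhbb lie far to the left at -1.87, -1.84, -1.25 and -1.76 in set 1, and between -0.22 and -0.01 in set 2.

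The co-receptor gene Tdgf1 was the steadiest member. Its levels were 12.69 and 12.66 in VPA samples and 12.65 and 12.66 in Control samples, with a mean difference of 0.02 (95% interval -0.24 to 0.28, limma, adjusted p 0.998). Its range over the 6 arrays was 0.039, and only Tas2r140 and Riok3, named here for that reason, had a smaller one. Its probeset is also among the brightest, with 21 genes at or above its mean, though intensities of different probesets do not rank RNA amounts. The 64 genes with a mean of at least 12 had a median range of 0.212, against 0.404 for all genes, and whether its probes were near the top of their range was not tested. Acvr1b, the type I receptor, had levels of 7.94 and 8.12 in VPA samples, against 8.02 and 8.13 in Control samples. These groups overlapped, with a mean difference of -0.04 (95% interval -0.44 to 0.35, limma, adjusted p 0.998).

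Of the Smads, Smad3 had levels of 6.69 and 7.13 in VPA samples and of 7.23 and 7.22 in Control samples. The groups did not overlap, though VPA replicate 2 lay only 0.09 below its control against 0.54 in set 1. The mean difference was -0.32 (95% interval -0.79 to 0.16, limma, adjusted p 0.964). Smad2, its close relative, had levels of 8.30 and 8.16 in VPA samples, against 8.42 and 8.36 in Control samples. It was lower in both sets by similar amounts, -0.11 and -0.20, with an adjusted p of 0.972 (limma). The inhibitory Smad7 had levels of 9.47 and 9.84 in VPA samples, against 9.58 and 9.54 in Control samples. Its sign was not shared by the sets, with -0.10 in set 1 and 0.30 in set 2.

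Taken over the 9 genes, 7 lay below 0 in both sets (28% of all genes did) and 1, Tdgf1, above 0 in both (32%). In 4 members, Lefty1, Gdf3, Smad2 and Smad3, both VPA arrays lay below both Control arrays, against 15.6% of all genes, and in 1, Tdgf1, both lay above, against 19.1%. For Lefty1 and Tdgf1 the nearest arrays were less than 0.01 apart. The members had a median difference of -0.15 (set 1 -0.11, set 2 -0.04), beside 0.01 over all genes. With the replicate number as a block in limma, 3 members, Lefty1, Lefty2 and Gdf3, had an unadjusted p under 0.05 and were lower, against 6.01% of all genes, and their adjusted p-values were 0.312, 0.285 and 0.28. Their blocked 95% intervals were -1.747 to -0.125, -1.825 to -0.217 and -1.302 to -0.164. For Nodal the blocked interval was -0.315 to 0.176. The blocked model also called 0 members and 0 genes. Of the 12 stem cell markers, 11 lay below 0 in both sets with VPA and 0 above, with a median difference of -0.304. With the block in limma, 5 of them had an unadjusted p under 0.05 and were lower. Their mean was -0.44 for VPA in set 1 and -0.26 in set 2. The fibroblast markers differed by -0.13 and 0.21, and the part of either in the values of the Nodal pathway genes was not tested.

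**Figure D3:**
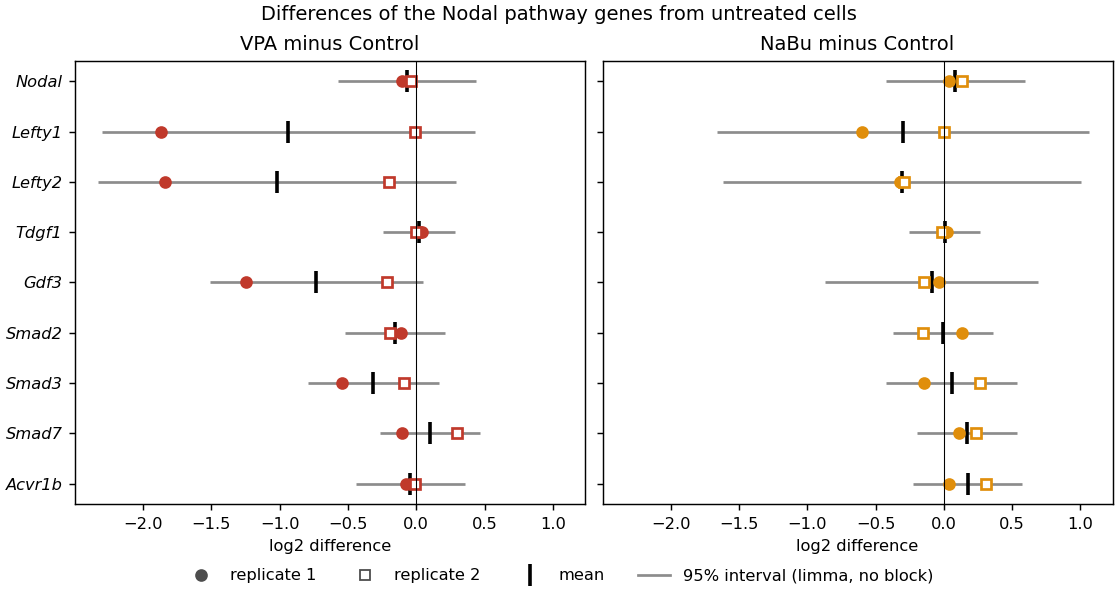
Differences of the 9 genes from untreated cells in log2 units for VPA (left) and NaBu (right), with filled circles for set 1, open squares for set 2, vertical ticks for the mean and grey lines for 95% intervals of limma without a block. Each interval drawn includes 0, while with the replicate block the VPA intervals of Lefty1, Lefty2 and Gdf3 did not. The set 1 and set 2 values of Lefty1 lie furthest apart, at -1.87 and -0.01 with VPA and at -0.60 and 0.00 with NaBu.

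With NaBu the mean differences of the 9 genes from untreated cells ran from -0.31 to 0.18, and both Lefty genes again had the lowest values. limma called 0 members and 0 of 19938 genes (0%), and again 0 with the block. Rounded to 3 digits, the lowest adjusted p was 1 without the block and 0.994 with it. At an unadjusted p under 0.05 there were 311 genes, 0.898% of all genes lower and 0.662% higher, and 0 members. Lefty1 had levels of 7.48 and 8.09 in NaBu samples and of 8.08 and 8.08 in Control samples. The low array was again replicate 1, 1.52-fold below its control, with only 56 genes lower in that set, and set 2 showed a difference of 0.00. Over both sets the difference was -0.30 (95% interval -1.66 to 1.07, limma, adjusted p 1). Lefty2 had levels of 8.13 and 8.37 in NaBu samples, against 8.45 and 8.66 in Control samples. It was lower by a like amount in both sets, -0.32 and -0.29, and the groups did not overlap. Its mean stood -0.31 from Control (95% interval -1.61 to 1.00, limma, adjusted p 1).

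Gdf3 had levels of 9.53 and 8.77 in NaBu samples and of 9.56 and 8.91 in Control samples. Each NaBu array was near the untreated array of its set, with differences of -0.03 and -0.14. Nodal had levels of 9.11 and 8.78 in NaBu samples, against 9.07 and 8.65 in Control samples, a mean difference of 0.09 (95% interval -0.42 to 0.59). Tdgf1 had levels of 12.67 and 12.65 in NaBu samples, against 12.65 and 12.66 in Control samples. In each set both genes lay within 0.13 of untreated cells.

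Smad7 had levels of 9.69 and 9.77 in NaBu samples and of 9.58 and 9.54 in Control samples, the one member for which both NaBu arrays lay above both Control arrays. Over all genes 12.7% did so, and 11.2% lay below in the same way, as did Lefty2. Its mean difference was 0.17 (95% interval -0.20 to 0.54, limma, adjusted p 1). Acvr1b had levels of 8.06 and 8.44 in NaBu samples, against 8.02 and 8.13 in Control samples, and its differences were 0.04 and 0.31. Smad2 had differences of 0.14 and -0.15 and Smad3 of -0.15 and 0.26, so that the sets disagreed in sign for both. The fibroblast markers had a mean NaBu difference of 0.11 in set 1 and of 0.31 in set 2, and the differences of Smad7, Acvr1b and Nodal were likewise above 0 in both sets and larger in set 2. The part of the fibroblasts in these values was not tested. Of the members, 2 lay below 0 in both sets (23.1% of all genes) and 3 above 0 in both (29.1%). Their median difference was 0.01, beside 0.01 over all genes.

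The comparison of the compounds is one of 2 exposures at unlike doses, 0.5 mM VPA and 0.2 mM NaBu, so structure and dose cannot be told apart. limma called 0 of the 9 members and 0 genes (0%), and 0 with the block. At an unadjusted p under 0.05 there were 724 genes, 1.69% of all genes lower with VPA and 1.95% higher, and 0 members. Gdf3 was lower with VPA than with NaBu by -1.22 in set 1 and -0.07 in set 2 (mean -0.64, 95% interval -1.42 to 0.13, limma, adjusted p 0.998). It was the one member with no overlap of the 4 arrays, which 14.6% of all genes shared in that direction. Smad3 differed more evenly, by -0.40 and -0.35 (mean -0.37, 95% interval -0.85 to 0.11, limma, adjusted p 0.998). With the block these 2 members had an unadjusted p under 0.05 and were lower, against 5.27% of all genes, and 0 were higher, against 5.51%, with adjusted p-values of 0.43 and 0.419. Lefty1 differed by -1.27 and -0.01 and Lefty2 by -1.52 and 0.09. For Nodal the interval of the mean difference was -0.66 to 0.35 and for Tdgf1 -0.25 to 0.27. The VPA and NaBu differences from untreated cells share the Control samples, so their likeness was not assessed.

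Nodal differed between the replicate sets in all 3 groups. Its mean was 8.68 ± 0.09 (SD, n = 3 arrays) in set 2 and 9.05 ± 0.07 in set 1, and set 2 was lower in all 3 groups, by -0.35 with VPA, -0.33 with NaBu and -0.42 in Control. The difference was -0.36 (95% interval -0.57 to -0.16) and passed in the blocked limma model with an adjusted p of 0.0341, as did 5.56% of all genes in that direction. A lower set 2 in each of the 3 groups was also seen for Smad2 and for 23.5% of all genes. The call was lost when any 1 of the 6 arrays was left out, with adjusted p-values of 0.0573 to 0.167. In the same model 14 of the 19 fibroblast markers passed and were higher in set 2, with a mean of 0.95 over the list, and 1 of 12 stem cell markers, Nanog, passed and was lower, with a list mean of -0.13. The part of the fibroblast share in the set difference of Nodal was not tested. No other member passed, and 6.04% of all genes passed in the upward direction. Lefty1, Lefty2 and Acvr1b were higher in set 2 in each group, as were 23.2% of all genes. The mean set difference was 0.82 for Lefty1 and 0.76 for Lefty2, through VPA replicate 1 above all: their differences between sets were 1.86 and 1.85 with VPA, 0.60 and 0.23 with NaBu and 0.00 and 0.20 in Control. Gdf3 was lower in set 2 with NaBu (-0.76) and in Control (-0.65) but higher with VPA (0.38).

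The ligand Nodal and its co-receptor gene Tdgf1 have promoters in the RefSeq table of GRCm38.p6, in which 4 of the 9 members are listed, and are shown because one differed between sets and the other was nearly constant. Capitals mark matches, on either strand, to the Foxh1 core TGTNNATT (reverse AATNNACA) or the Smad-binding CAGAC (reverse GTCTG). The windows run from 250 bases before the start of the gene to 50 after it, on the strand of the gene. Nodal lies at chr10:61417722-61418021 on the plus strand and Tdgf1 at chr9:110946109-110946408 on the minus strand.
Nodal: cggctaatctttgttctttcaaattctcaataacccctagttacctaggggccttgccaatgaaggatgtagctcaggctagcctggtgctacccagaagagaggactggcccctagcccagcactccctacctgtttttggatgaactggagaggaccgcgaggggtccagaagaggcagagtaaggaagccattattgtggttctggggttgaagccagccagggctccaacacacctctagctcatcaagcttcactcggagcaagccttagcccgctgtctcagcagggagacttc
Tdgf1: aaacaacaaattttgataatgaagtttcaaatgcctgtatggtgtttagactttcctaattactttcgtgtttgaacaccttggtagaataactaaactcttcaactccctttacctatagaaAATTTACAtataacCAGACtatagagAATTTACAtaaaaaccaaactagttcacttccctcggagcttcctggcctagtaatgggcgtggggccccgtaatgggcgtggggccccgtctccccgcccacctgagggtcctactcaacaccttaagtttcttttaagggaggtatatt

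The Tdgf1 window held 2 matches to the Foxh1 core, which begin at -127 and -101 from the start site, with 1 CAGAC between them at -113. The Nodal window held neither motif, nor did those of Smad3 and Acvr1b. Of all 32851 promoter windows, 12.2% held the Foxh1 core and 49.6% the Smad motif. A match is a description of letters and not a bound site, and Lefty1, Lefty2, Gdf3, Smad2 and Smad7 were not searched.

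By the size of its pattern over the 6 arrays Lefty2 ranged most of the members, by 2.05 (61 genes ranged at least as far), followed by Lefty1 with 1.87 (84 genes) and Gdf3 with 1.25 (406 genes). The ranges of the other members were 0.79 for Smad3, 0.50 for Acvr1b, 0.49 for Nodal, 0.39 for Smad2 and 0.37 for Smad7, beside the median of 0.404. The gene most like Lefty2, by the root mean square difference of values centred on each gene's mean, was Lefty1 at 0.128, ahead of Prmt8 at 0.163 and Enpp3 at 0.184, where Lefty2 itself varied by 0.690 about its mean. The genes most like Nodal, which varied by 0.194, were the RNA-binding factor Celf1 (0.022), Cand1, a regulator of cullin ubiquitin ligases (0.024), and Zc3hav1l (0.027). Symbols of the Rik, LOC, Olfr, Vmn, Mir and Snor kinds, and Gm with digits, were left out of this ranking. Each is a likeness over 6 arrays of 2 sets.

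The rest of the pathway was counted over 60 measured genes of 63 written, in lists by role. Of these, 31 lay below 0 with VPA and 29 above, with a median of -0.01, and 26 and 34 with NaBu, with a median of 0.04. limma called 0 of them for either compound. With VPA, 4 had an unadjusted p under 0.05, of which Otx2 and Tmeff1 were lower (2.18% of all genes) and Bmpr1b and Gdf11 higher (2.74%). With the block 8 were lower (6.01% of all genes) and 4 higher (7.21%), against 0 (2.2%) and 1 (2.4%) with NaBu.

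Among ligands and the proteases that mature them, Inhbb had levels of 5.08 and 5.90 in VPA samples, against 6.84 and 6.10 in Control samples, a mean difference of -0.98 (95% interval -1.99 to 0.02, limma, adjusted p 0.964). Both VPA arrays were the lower ones, by -1.76 in set 1 and -0.21 in set 2. On the array of VPA replicate 1 Inhbb lay below the median of all genes, 5.78. On that of VPA replicate 2 it was near the median, 5.79. Pcsk6, a convertase that cleaves the Nodal precursor, had levels of 7.41 and 7.26 in VPA samples and of 8.31 and 7.44 in Control samples, again with the larger difference in set 1 (-0.91 and -0.17). Furin, the other convertase, differed by 0.26 and 0.01. Gdf11, a ligand of the same Smads, was higher in both sets, by 0.47 and 0.24. With NaBu the 8 genes of the list differed by -0.22 to 0.14.

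Of the 9 receptor and co-receptor genes, 7 lay above 0 with VPA (median 0.17) and 8 with NaBu (median 0.19), beside 10567 and 10829 of the 19938 genes. Of the 19 fibroblast markers, 13 lay above 0 with VPA (median 0.07) and 19 with NaBu (median 0.24, 15 of them in both sets), and their part in the receptor values was not tested. The type II receptor gene Acvr2a had levels of 7.79 and 7.56 in VPA samples, 7.65 and 7.60 in NaBu samples and 7.45 and 7.22 in Control samples. Each treated array lay above the untreated arrays, and its VPA difference was 0.34 in both sets (95% interval of the mean -0.00 to 0.69). Its NaBu differences were 0.20 and 0.38. Acvr2b, the other type II receptor, had mean differences of -0.18 with VPA and -0.06 with NaBu. Acvr1c, a type I receptor with levels below the median of all genes on every array, had 0.20 and 0.05. Tgfbr1, the type I receptor for transforming growth factor beta, had 0.22 with VPA and 0.20 with NaBu, and stem cells and fibroblasts were not told apart for these genes.

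Of the nuclear partners, Foxh1 had levels of 5.81 and 5.72 in VPA samples, 6.14 and 5.84 in NaBu samples and 6.79 and 5.83 in Control samples. Control replicate 1 was the high array, so that VPA differed from Control by -0.98 and -0.11 in sets 1 and 2, and NaBu by -0.65 and 0.01. Smad4 had a mean difference of 0.03 with either compound. Crebbp, an acetyltransferase that acts as a coactivator of Smads, had -0.24 with VPA and 0.06 with NaBu. The corepressor genes Skil and Tgif1 had mean differences of 0.10 and -0.13 with VPA and of 0.08 and -0.07 with NaBu.

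Of 8 extracellular antagonists outside the Lefty genes, 5 lay below 0 with VPA and 3 above, and 4 and 4 with NaBu. Tmeff1, a membrane protein that binds Cripto in frog embryos, had levels of 9.59 and 9.64 in VPA samples, against 10.04 and 9.92 in Control samples. Its mean difference was -0.36 (95% interval -0.68 to -0.04, limma, adjusted p 0.964). Fst, which binds activin, differed by -0.29 and 0.54 with VPA and Fstl3 by 0.33 and 0.34. Cer1, an antagonist of Nodal and bone morphogenetic proteins, differed by 0.31 and -0.38 with VPA, and Dand5, of the same family, by -0.06 and -0.58 with NaBu. Both lay below the median of all genes on every array, Cer1 at 3.74 to 4.203 and Dand5 at 4.345 to 4.924. Of 14 measured target genes, 7 lay below 0 and 7 above with VPA (median -0.01). Otx2, a regulator of the epiblast and the forebrain, had levels of 8.46 and 8.33 in VPA samples and of 9.19 and 8.82 in Control samples. It was lower in both sets (-0.73 and -0.49), with a mean of -0.61 (95% interval -1.10 to -0.12, limma, adjusted p 0.964). Gsc, an organiser gene, was lower by -0.29 and -0.32 with VPA, at levels below the median of all genes on every array. Fgf8 differed by -0.12 and -0.38 with NaBu.

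In the branch for bone morphogenetic proteins, Bmpr1b, a type I receptor, had levels of 4.32 and 4.28 in VPA samples, 3.83 and 3.85 in NaBu samples and 3.64 and 3.78 in Control samples. The VPA arrays lay above all others, with a mean difference of 0.59 (95% interval 0.31 to 0.87, limma, adjusted p 0.964), at levels below the median of all genes. Smad1, which transduces these signals, had a mean difference of -0.29 with VPA, with -0.47 in set 1 and -0.12 in set 2.

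**Figure D4:**
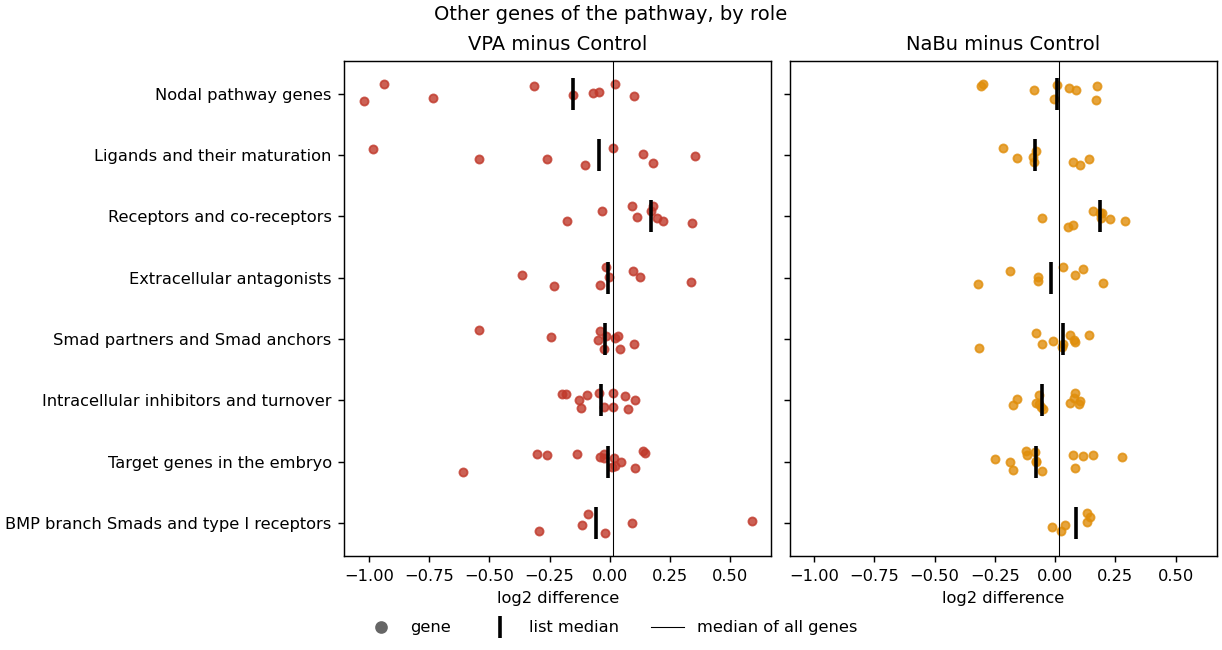
Mean log2 difference from untreated cells for VPA (left) and NaBu (right) of each gene, in rows by role, with points spread vertically only for sight, thick ticks for list medians and a thin line for the median of all genes. The Nodal pathway genes reach lowest with VPA, at -1.02, and Inhbb at -0.98 is the lowest of the other genes.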

How the data were processed

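The deposited values are log2 intensities of probesets on single arrays, summarised by the authors using Affymetrix Expression Console 1.1 and RMA, as named in the submitters' processing notes. The sources used here do not give the RMA settings or a genome build for the values. RMA removes background by a model, which compresses small differences of dim probesets. Of 35556 probesets, 21789 had a single symbol, and a gene was represented by its probeset of highest mean level, which gave 19938 genes. No filter on low values was used, and all 9 members lay above the median of all genes on every array.

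Differences were fitted in R 4.3.3 using lmFit and eBayes of limma 3.58.1, with 1 mean per group (3 residual degrees of freedom) and Benjamini-Hochberg adjustment over all genes. On simulated data, mostly of smaller spread than these, the check was that median estimates came close to the added differences. The power to call genes in these data was not assessed by it. The replicate block leaves 2 residual degrees of freedom. The numbers were taken to pair arrays because deviations of same-numbered arrays correlated (r 0.558, 0.693 and 0.567), as read from the values and not from the labels. Exact permutation of 2 against 2 arrays, two-sided, cannot go below p = 0.333 and was not run. The number of arrays limits the precision. Members and lists were chosen with earlier results of these data known. Named were all members, 11 fixed pathway genes, the 3 genes of each list with the largest moderated statistic per compound (some are not described), and the 3 nearest genes by pattern, among the symbols kept for that ranking, for Nodal and the widest-ranging member. Genes named for other reasons are said to be so. Gdf1, T and Fbn1 had no probeset annotated with that symbol alone and were not analysed here.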

Additional observations from a re-analysis of the deposited data

How the results depend on the processing

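The counts of genes and of members called for VPA against Control, NaBu against Control and VPA against NaBu were 0 in every alternative run: the replicate block, an intensity trend, quantile normalization, median centring, genes at or above the median level, the mean of all probesets, the 2 groups alone, and each array left out. At an unadjusted p under 0.05 there were 981, 311 and 724 genes, and 2636, 916 and 2150 with the replicate block. The block changed no call. Median centring turned 3 values near 0: Tdgf1 to -0.001 with VPA against Control, Smad2 to 0.004 with NaBu against Control and Tdgf1 to -0.02 between the compounds. The count of members that differed between sets, 1 (Nodal), was 0 with quantile normalization (Nodal -0.32, adjusted p 0.051), and 0 to 2 with an array left out, where a group with 1 array left gives the set difference nothing. Without either Control array Lefty1 (1.23) and Lefty2 (1.04) passed there, and without either VPA array Gdf3 did (-0.71).

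With 1 array left out and no block, the set difference enters the means, and signs turned for these. For VPA against Control the lowest and highest values were -0.136 and 0.048 for Acvr1b, -0.28 and 0.14 for Nodal and -0.084 and 0.282 for Smad7. For NaBu against Control they were -0.018 and 0.368 for Acvr1b, -0.47 and 0.29 for Gdf3, -0.602 and 0.003 for Lefty1, -0.12 and 0.29 for Nodal, -0.18 and 0.17 for Smad2, -0.14 and 0.25 for Smad3 and -0.004 and 0.018 for Tdgf1. Between the compounds they were -1.57 and 0.29 for Lefty1, -1.64 and 0.21 for Lefty2, -0.33 and 0.02 for Nodal, -0.320 and 0.026 for Smad2 and -0.25 and 0.11 for Smad7. For VPA against Control Lefty1 ranged over -1.87 and -0.01, Lefty2 over -1.95 and -0.10, Gdf3 over -1.06 and -0.41 and Smad3 over -0.54 and -0.10, all without a turn of sign. Signal over background was not in the deposited values, so its limit on these genes was not assessed.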
